A study of Mus musculus with 4 samples.

Results

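The genes described here are the 5 NF-κB subunits and 5 of their inhibitors, namely Nfkb1, Nfkb2, Rel, Rela, Relb, Nfkbia, Nfkbib, Nfkbie, Nfkbiz and Tnfaip3. They were taken by gene symbol from a table of read counts over 24391 genes, which held all 10, and 9 of them had enough counts to be tested. The counts come from 4 RNA-Seq libraries of Beko cells, a mouse progenitor T-cell line in which the Notch pathway is always on. The 2 GSI libraries are from cells kept for 48 h in DAPT, a γ-secretase inhibitor (GSI) that prevents the cleavage by which Notch is activated. The 2 washout libraries are from cells that went through the same 48 h in DAPT, were then washed and grew for 24 h without it. The labels give a dose of 10 mg/ml, whereas the methods give the same figure in μg/ml. The comparison addresses which genes respond when Notch is released from inhibition. All libraries share 1 cell line and the inhibitor, and no cells that were washed and grown on with the inhibitor were compared here, so the return of Notch activity, the wash and the extra 24 h in culture cannot be told apart. The labels number the replicates without saying that they were separate cultures, so p-values measure the spread between these libraries, which may be technical.

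NF-κB is a family of transcription factors that act as dimers of RELA (p65), RELB, c-REL, p50 and p52, and the last of these are cut from the larger precursors encoded by Nfkb1 and Nfkb2. In resting cells the dimers are held in the cytoplasm by IκB proteins. On a signal from antigen, cytokine or Toll-like receptors the IκB kinase marks the IκB proteins for destruction, and the dimers enter the nucleus and bind κB sites. Among the genes switched on there are those of the inhibitors themselves, IκBα (Nfkbia) and A20 (Tnfaip3), which close a negative feedback loop. In immature T cells the pathway is tied to pre-T-cell receptor signals, survival and T-cell leukemia.

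The reads counted on genes came to between 13716199 and 36364200 per library, with replicate 1 the deeper library in both groups. Levels are given in CPM, counts relative to the library total multiplied by its TMM factor, and 3 counts, taken as the limit of detection, correspond to between 0.0881 and 0.223 CPM. Scaling by the total count alone moves log2 fold changes by -0.20 relative to TMM, with 586 genes upregulated and 1963 downregulated in place of 950 and 1437. As a check of the labels, 8 of 9 tested genes of a list of known Notch targets rose after washout, beside 27.0% of all genes tested. Their median log2 fold change was 2.36, and that of all genes tested was -0.01. The 14 T-progenitor markers were detected in every library, the lowest at 14.4 CPM, and their summed level was between 8136 and 8277 CPM in GSI and between 6857 and 7386 CPM after washout. Within this list 3 markers rose (21.4%) and 6 fell (42.9%) at an adjusted p below 0.05 (edgeR). Of all tested genes 27.0% rose and 25.4% fell. The sum thus hides changes in both directions. Of 6 mast cell markers, Fcer1a, Ms4a2, Mcpt4 and Tpsb2 were at 0 in every library, while the sum, carried by Cpa3 and Kit, was 166.7 to 274.5 CPM in GSI and 30.5 to 45.7 CPM after washout. The 7 myeloid markers summed to 38.4 to 49.3 CPM in GSI and 4.99 to 5.52 CPM after washout, nearly all of it Itgam, with Lyz2 and Elane at 0. The summed B cell, erythroid and fibroblast markers were at most 47.6 CPM in GSI and at most 36.5 CPM after washout, and lower after washout in each list. The part of these other lists in the results below was not tested.

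Promoter sequences of the genes that carry the main result are shown first, since IκBα, IκBε, A20 and p52 are textbook products of NF-κB-driven genes. RefSeq promoters (250 bases before to 50 bases after an annotated start, from a GRCm38.p6 table) were found for 7 of the 10 genes, in 10 windows of 300 bases, and were placed on mm9 by exact match. None was found for Nfkb1, Relb and Nfkbiz, so their promoters were not searched. Both strands were searched for the κB consensus, a motif of 10 bases, and for TGGGAA, the core bound by RBPJ, the DNA-binding partner of Notch. The κB consensus was present in 7 of the 10 windows, beside 8.46% of all 32851 promoter windows in the table. The windows with a match belong to 5 of the 7 genes, and a share over all genes was not computed. In Nfkb2, 2 of the 3 windows overlap and share 1 κB match, so the windows are not independent. A match is a match of letters and no evidence of binding. In the sequences, printed 5′ to 3′ on the strand of the gene, capitals mark the κB matches.
Nfkbia, chr12:56593585-56593884, minus strand: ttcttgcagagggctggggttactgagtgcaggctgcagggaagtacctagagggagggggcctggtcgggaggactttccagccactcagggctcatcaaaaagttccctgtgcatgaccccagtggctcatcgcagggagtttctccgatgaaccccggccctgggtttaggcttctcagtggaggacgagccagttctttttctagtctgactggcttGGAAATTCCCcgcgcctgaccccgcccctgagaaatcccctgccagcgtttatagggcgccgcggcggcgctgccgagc
Nfkbie, chr17:45692399-45692698, plus strand: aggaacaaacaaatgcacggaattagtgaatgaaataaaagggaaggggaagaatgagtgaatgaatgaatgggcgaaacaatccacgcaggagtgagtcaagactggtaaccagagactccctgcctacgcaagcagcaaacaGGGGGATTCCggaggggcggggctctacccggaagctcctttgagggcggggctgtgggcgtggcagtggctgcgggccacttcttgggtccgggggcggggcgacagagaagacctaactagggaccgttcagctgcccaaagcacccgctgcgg
Tnfaip3, upstream start, chr10:18735167-18735466, minus strand: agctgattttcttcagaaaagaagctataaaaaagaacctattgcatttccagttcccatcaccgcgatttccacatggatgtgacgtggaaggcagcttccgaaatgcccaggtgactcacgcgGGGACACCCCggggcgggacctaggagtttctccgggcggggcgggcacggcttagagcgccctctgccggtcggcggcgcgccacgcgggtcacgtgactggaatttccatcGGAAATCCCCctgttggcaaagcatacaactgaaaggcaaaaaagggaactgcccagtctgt
Nfkb2, first start, chr19:46378977-46379276, plus strand: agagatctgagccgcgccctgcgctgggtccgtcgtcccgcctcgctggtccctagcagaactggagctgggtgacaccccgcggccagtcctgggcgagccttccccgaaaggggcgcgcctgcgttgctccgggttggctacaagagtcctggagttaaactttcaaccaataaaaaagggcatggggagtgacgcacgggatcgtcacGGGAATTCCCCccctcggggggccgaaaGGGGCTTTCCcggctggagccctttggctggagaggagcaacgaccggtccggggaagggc
Nfkb2, next start, chr19:46379935-46380234, plus strand: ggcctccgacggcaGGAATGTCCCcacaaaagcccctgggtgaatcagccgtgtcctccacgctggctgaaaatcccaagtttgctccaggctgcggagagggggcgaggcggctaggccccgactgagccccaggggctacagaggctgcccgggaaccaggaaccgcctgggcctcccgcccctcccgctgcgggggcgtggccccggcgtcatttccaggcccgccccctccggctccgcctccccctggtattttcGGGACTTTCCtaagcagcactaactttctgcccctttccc
Nfkbia held its κB match at -29 to -20 from the start and Nfkbie at -106 to -97. Tnfaip3 held 2, at -125 to -116 and at -12 to -3, and the first start of Nfkb2 held 2, at -39 to -29 and at -11 to -2. The next start of Nfkb2 also held 2, at -236 to -227 and at 11 to 20, and the other Tnfaip3 window held none. Of all windows in the RefSeq set, 0.521% held at least 2 separate κB stretches. Rel held a κB match at -92 to -82, whereas the windows of Rela and Nfkbib held none. TGGGAA was found in 1 window each of Nfkbib, Rel and Tnfaip3 among the 10 windows, close to the 25.6% of all windows that held it. It overlapped no κB match.

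**Figure D1:**
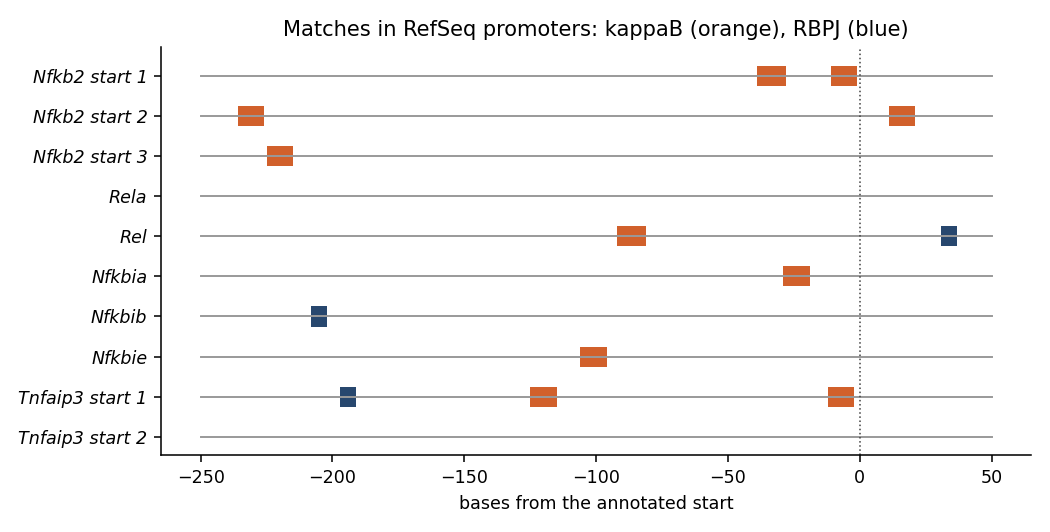
Positions of κB consensus matches (orange) and TGGGAA, the RBPJ core (blue), in the 10 RefSeq promoter windows of 7 genes, with the distance from the annotated start in bases on the horizontal axis and 1 line per window. κB matches lie in 7 windows, and those of Nfkbia, Nfkb2 (first start) and Tnfaip3 (upstream start) include a match close before the start. Nfkb1, Relb and Nfkbiz had no window to search.

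After washout the mRNAs of the inhibitors IκBα, IκBε, IκBζ and A20 were lower, RelB was lower, and Nfkb2 was higher, while Nfkb1 and Rela did not pass the test. Of the 9 genes tested, 2 rose and 5 fell at an adjusted p below 0.05 (edgeR), beside 27.0% of all 12266 tested genes that rose and 25.4% that fell. With the further demand of a log2 fold change above 1 or below -1, called upregulated and downregulated here, 1 gene was upregulated and 5 were downregulated, where the shares of all genes were 7.74% and 11.7%. The median log2 fold change of the 9 genes was -1.26, and that of all tested genes was -0.01. In each of the 9 genes the libraries of the 2 groups did not overlap, which was also so for 77.3% of all tested genes. In bulk RNA, fewer cells that express a gene and less RNA per cell cannot be told apart.

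**Figure D2:**
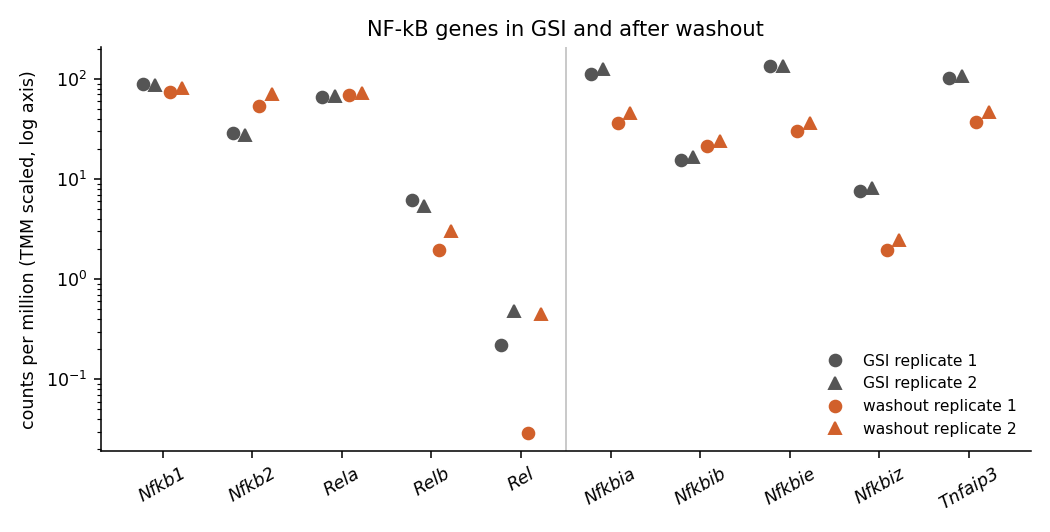
CPM (TMM scaled, log axis) of the 10 genes in each library, with GSI in gray, washout in orange, circles for replicate 1 and triangles for replicate 2. Nfkbia, Nfkbie, Nfkbiz, Tnfaip3 and Relb are lower in both washout libraries, Nfkb2 is higher, and Rel is the lowest of the 10 in every library.

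Among the subunits, Nfkb2, the precursor of p52 (mm9 chr19:46379227-46386580, plus strand), was at 28.8 and 27.8 CPM in the GSI libraries and at 54.3 and 71.0 CPM in the washout libraries. Both washout libraries were well above both GSI libraries, and washout replicate 2 was the highest. On the log2 scale the rise was 1.14 (SE 0.148, adjusted p = 0.00152, edgeR). It was 0.94 with the total count alone and 0.96 without washout replicate 2, both still past the test and just under the fold threshold. Its 3′ end overlaps Psd on the other strand by 4 bases, and Psd itself rose by 0.91 on the log2 scale. The κB matches printed above were thus found in the promoters of a gene that rose, Nfkb2, and of genes that fell, Nfkbia, Nfkbie and Tnfaip3.

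Relb, which encodes the usual partner of p52 (mm9 chr7:20191566-20214787, minus strand), went the other way. It was at 6.25 and 5.35 CPM in GSI and at 1.97 and 3.05 CPM after washout, from 41 to 200 counts per library. Both washout libraries were lower, and the spread between replicates was larger than for the more abundant genes. The fold change on the log2 scale was -1.26 (SE 0.294, adjusted p = 0.0132, edgeR). The call was lost without GSI replicate 1 (adjusted p = 0.0685) and without washout replicate 1 (-0.93, adjusted p = 0.0612), and the value was -0.97 with offsets for GC content and exon length.

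Nfkb1, which encodes p105 and p50 (mm9 chr3:135247619-135354511, minus strand), was at 89.2 and 87.4 CPM in GSI and at 74.8 and 81.6 CPM after washout. The washout libraries were slightly lower, without overlap, and the difference did not pass the test. The log2 fold change was -0.18 (95% interval -0.40 to 0.05, adjusted p = 0.157, edgeR), and it was -0.38 with adjusted p = 0.0160 when libraries were scaled by the total count alone. Rela, the p65 subunit with a transactivation domain (mm9 chr19:5637483-5648130, plus strand), was at 65.4 and 66.8 CPM in GSI and at 69.8 and 72.8 CPM after washout. These 4 libraries were nearly level. Rela had a log2 fold change of 0.11 (95% interval -0.11 to 0.33, adjusted p = 0.345, edgeR), which turned to -0.09 with the total count alone, and it reached 0.41 with adjusted p = 0.00387 under the GC and length offsets.

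Rel, which encodes c-REL (mm9 chr11:23641514-23670970, minus strand), was close to the limit of detection in these cells. It had 7 and 7 counts in the GSI libraries and 1 and 6 counts in the washout libraries, and it was too low for the test. The ratio of washout to GSI was 0.491, with a 95% exact counting interval of 0.168 to 1.30 that covers counting error only. The groups overlapped, and no difference was detectable at this depth.

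The inhibitor with the largest change was Nfkbie, which encodes IκBε (mm9 chr17:45692665-45700118, plus strand). It was at 133.2 and 135.6 CPM in GSI and at 30.3 and 36.5 CPM after washout. The GSI libraries were within a few percent of each other and far above the washout libraries. The log2 fold change was -2.01 (SE 0.118, adjusted p = 0.000303, edgeR), a 4.04-fold lower level. It lay between -2.13 and -1.87 when any library was left out.

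Nfkbia, which encodes IκBα, the classical feedback inhibitor (mm9 chr12:56590398-56593634, minus strand), was at 113.3 and 126.6 CPM in GSI and at 36.1 and 45.8 CPM after washout. Every GSI library was more than the sum of both washout libraries. On the log2 scale the difference was -1.56 (SE 0.140, adjusted p = 0.000533, edgeR), or 2.94-fold lower. Nfkbib, which encodes IκBβ (mm9 chr7:29543270-29552531, minus strand), moved in the opposite direction. It was at 15.3 and 16.7 CPM in GSI and at 21.6 and 23.7 CPM after washout, higher in both washout libraries. The log2 fold change of Nfkbib was 0.50 (SE 0.131, adjusted p = 0.0195, edgeR). Its call was lost with the total count alone (0.30, adjusted p = 0.0924) and without GSI replicate 1, GSI replicate 2 or washout replicate 2 (adjusted p = 0.128, 0.0547 and 0.0579). Nfkbib overlaps Sirt2 on the other strand by 42 exon bases, 1.94% of its exons, and Sirt2 fell by 0.63 on the log2 scale.

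Nfkbiz encodes IκBζ, an atypical nuclear IκB protein that works as a cofactor of p50 at inflammatory genes (mm9 chr16:55811488-55839012, minus strand). It was at 7.53 and 8.16 CPM in GSI and at 1.94 and 2.46 CPM after washout, with 33 to 241 counts per library. Both GSI libraries were several times higher than both washout libraries. For Nfkbiz the log2 fold change was -1.86 (SE 0.241, adjusted p = 0.00152, edgeR), or 3.63-fold lower. Tnfaip3 encodes A20, a ubiquitin-editing enzyme that shuts off signaling upstream of the IκB kinase (mm9 chr10:18720716-18735463, minus strand). It was at 103.1 and 106.2 CPM in GSI and at 37.5 and 46.5 CPM after washout. The replicates lay close together in GSI, and every washout library was below them. For Tnfaip3 the log2 fold change was -1.32 (SE 0.125, adjusted p = 0.000593, edgeR), or 2.50-fold lower.

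**Figure D3:**
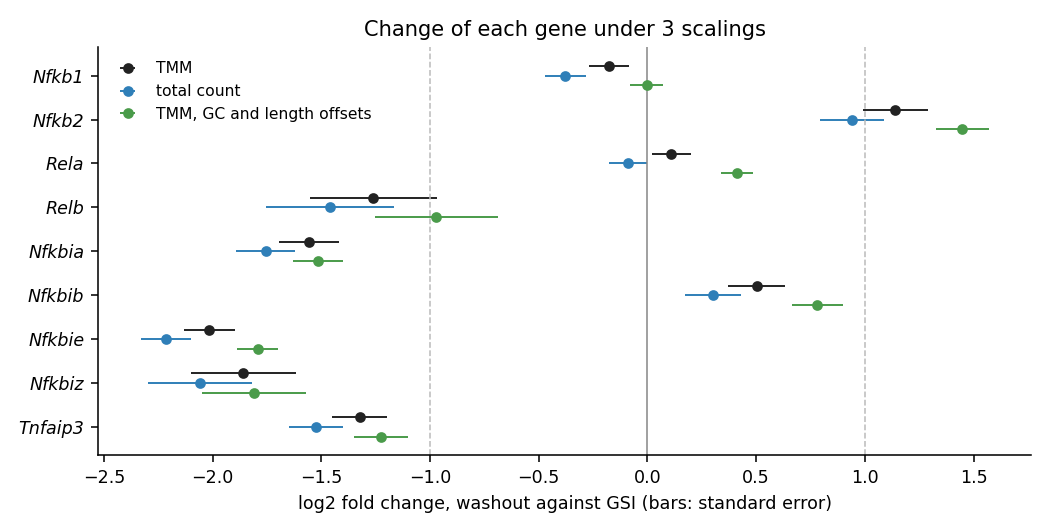
Log2 fold change of washout against GSI for the 9 tested genes under TMM scaling (black), the total count alone (blue) and TMM with GC and length offsets (green), with standard errors as bars and the thresholds of -1 and 1 dashed. Nfkbie, Nfkbiz, Nfkbia and Tnfaip3 lie below -1 under all 3 scalings, whereas Rela changes sign, from 0.11 to -0.09 with the total count alone.

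To compare levels between genes, counts were divided by the length of the merged exons, giving CPM per kilobase of exon. The lengths came from the GENCODE annotation, whereas the paper names an iGenomes annotation for counting. Orders of genes and ratios between genes on this scale are therefore approximate. On this scale and in GSI the most abundant mRNA was Nfkbia (71.9 and 80.3), followed by Nfkbie (55.0 and 56.0), Rela (24.1 and 24.6), Nfkb1 (18.6 and 18.2) and Tnfaip3 (14.3 and 14.7). Nfkb2, Nfkbib, Relb and Nfkbiz were lower, Relb and Nfkbiz overlapped each other, and Rel was last. After washout the order per length was Rela (25.7 and 26.8), Nfkbia (22.9 and 29.1), Nfkb2 (16.5 and 21.6), Nfkb1 (15.6 and 17.0), Nfkbie (12.5 and 15.1), Nfkbib (9.96 and 10.9) and Tnfaip3 (5.19 and 6.44). The neighbors Rela and Nfkbia overlapped, as did Nfkb2 and Nfkb1. Nfkbia and Nfkbie led all members in both GSI libraries, and after washout Nfkbie was below Rela, Nfkb1 and Nfkb2.

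Summed over the 5 subunits, the level per length was 53.1 and 52.8 in GSI and 58.3 and 66.4 after washout. The 3 cytoplasmic IκB genes, Nfkbia, Nfkbib and Nfkbie, summed to 134.0 and 144.0 in GSI and to 45.4 and 55.1 after washout. The sum of the subunits was slightly higher after washout, by 0.23 on the log2 scale, or 0.03 with the total count alone, while the sum of the IκB genes was clearly lower. The ratio of IκB to subunit mRNA per length was 2.52 and 2.73 in GSI and 0.778 and 0.830 after washout. This ratio counts Nfkb1 and Nfkb2 wholly as subunits, although they encode precursors from which p50 and p52 are cut. IκB mRNA exceeded subunit mRNA in both GSI libraries and was below it in both washout libraries, and protein was not measured. These sums are given without a test.

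The makeup of each sum also differed between the groups. Nfkb2 made up 16.5% and 16.0% of subunit mRNA per length in GSI and 28.3% and 32.5% after washout. The share of Nfkb1 went from 35.0% and 34.5% to 26.8% and 25.6%, that of Relb from 3.02% and 2.60% to 0.867% and 1.18%, and that of Rela from 45.3% and 46.6% to 44.1% and 40.4%. The shares of Nfkb1, Rela and Relb were each lower in both washout libraries, and Rela had the largest share in every library. Among the IκB genes, Nfkbib made up 5.28% and 5.33% in GSI and 21.9% and 19.9% after washout, and Nfkbie went from 41.1% and 38.9% to 27.6% and 27.4%. The ratio of Nfkb2 to its partner Relb per length was 5.45 and 6.14 in GSI and 32.6 and 27.5 after washout. The washout ratios rest on only 67 and 41 counts of Relb and are uncertain in size.

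**Figure D4:**
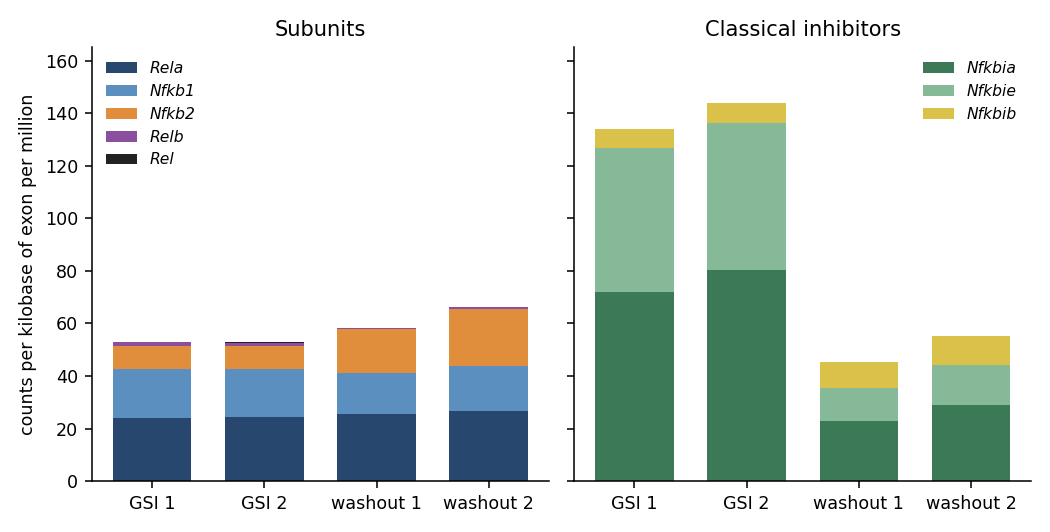
CPM per kilobase of exon in each library, stacked for the 5 subunits (left) and the 3 cytoplasmic IκB genes (right). The subunits sum to between 52.8 and 66.4 in all libraries, and the IκB genes sum to 134.0 and 144.0 in GSI and to 45.4 and 55.1 after washout.

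The other genes of the pathway were taken as lists by role. Of 11 tested kinases, β-TrCP genes and other IκB proteins, 0 rose and 4 fell (edgeR), that is 36.4% falling, where 27.0% of all genes tested rose and 25.4% fell. The median log2 fold change was -0.21. Of the 11 genes, 2 were downregulated, beside 11.7% of all genes tested. Map3k8 was 1 of them and passed the filter through its GSI counts. With at least 10 counts in every library, 10 genes were tested and 1 was downregulated. The count of 0 was also 0 at an unadjusted p below 0.05. DESeq2 gave 0 upregulated, a count that also demands the fold threshold and so cannot show whether smaller rises were present. Of the core IκB kinase genes, Ikbkg (NEMO, the regulatory subunit) had a log2 fold change of -0.40 (adjusted p = 0.0127), and the catalytic subunits Chuk and Ikbkb did not pass the test. Ikbke, an IκB-kinase-related kinase, was at 32.2 and 29.9 CPM in GSI and at 14.3 and 16.2 CPM after washout, both washout libraries being lower. Its log2 fold change was -1.03 (adjusted p = 0.00132), just past the fold threshold. The value was -0.74 with GC and length offsets and -0.996 without a filter, and the downregulated call held in 8 of 14 alternative fits. Map3k14, the kinase NIK that starts the processing of the Nfkb2 product to p52, was at 20.6 and 21.9 CPM in GSI and at 14.4 and 17.0 CPM after washout. NIK was lower in both washout libraries, by -0.44 on the log2 scale (adjusted p = 0.0402), a call lost in DESeq2 (adjusted p = 0.0986), in thinned counts (adjusted p = 0.0728) and without GSI replicate 1, GSI replicate 2 or washout replicate 1 (adjusted p = 0.108, 0.183 and 0.183). With GC and length offsets the value of Map3k14 was 0.01. Map3k8, the kinase TPL2 that is held by the product of Nfkb1, had 38 counts in GSI and 3 after washout, a ratio of 0.0775 (95% exact counting interval 0.0153 to 0.244), and its call was lost without GSI replicate 1, GSI replicate 2 or washout replicate 1 (adjusted p = 0.0517, 0.0613 and 0.134). The log2 fold change of Map3k8, -3.56, was -1.89 without washout replicate 1, and the fitted -7.51 without washout replicate 2 rests on a library at 0 counts and is no measure of size. The 2 genes of this list that were downregulated, Ikbke and Map3k8, became 0 without GSI replicate 1 or without washout replicate 1 and 1 without GSI replicate 2. The fall of Ikbkg did not pass without GSI replicate 1 (adjusted p = 0.100).

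Of 31 tested adaptors and ubiquitin enzymes that link receptors to the IκB kinase, 3 rose (9.68%) and 13 fell (41.9%) in edgeR, beside 27.0% and 25.4% of all genes tested, with a median log2 fold change of -0.23. Prkcq, the protein kinase Cθ that couples the T-cell receptor to NF-κB, was at 223.7 and 150.0 CPM in GSI and at 55.0 and 53.4 CPM after washout. Both washout libraries were lower, and the log2 fold change was -1.79 (SE 0.191, adjusted p = 0.000817). Irak4, a kinase of Toll-like and interleukin-1 receptors, had a log2 fold change of -1.16 (adjusted p = 0.00328), and Tnip2, an A20-binding protein, -0.99 (adjusted p = 0.00582). The 3 genes that rose, named after their values were seen, were Traf3 (0.47), which restrains NIK, the deubiquitinase Otulin (0.44) and the kinase Irak1 (0.30). Of the 31 genes, 2 were downregulated, Prkcq and Irak4, beside 11.7% of all genes tested.

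Of 19 receptors, 9 were tested, 0 rose and 6 fell (66.7%) in edgeR, where the shares of all genes tested were 27.0% and 25.4%. The median log2 fold change was -0.96, and 8 of the 10 untested ones were at or below 3 counts in every library. Here too 0 rose at an unadjusted p below 0.05. The 0 upregulated in DESeq2 again demands the fold threshold and cannot show whether smaller rises were present. Of the 9 tested receptors, 4 were downregulated, beside 11.7% of all genes tested. Tnfrsf11a and Tlr1 had fewer than 10 counts in a washout library and passed the filter through their GSI counts. The share that fell thus includes genes selected by their GSI level. With at least 10 counts in every library, 6 receptors were tested and 3 were downregulated. Cd27, a costimulatory TNF receptor of T cells, was at 191.1 and 195.5 CPM in GSI and at 75.6 and 99.3 CPM after washout. The log2 fold change of Cd27 was -1.15 (SE 0.143, adjusted p = 0.00131), and -0.96 without washout replicate 1. Tlr6 and Tlr1, Toll-like receptors that pair with TLR2, fell by 1.98 and 1.68 on the log2 scale, but Tlr6 lost its call without GSI replicate 1 (adjusted p = 0.0726) and Tlr1 without GSI replicate 1, washout replicate 1 or washout replicate 2 (adjusted p = 0.209, 0.0683 and 0.0558). Tlr2 itself was at 0 counts in every library. Tnfrsf11a, the receptor RANK, had 32 counts in GSI and 4 after washout, a ratio of 0.123 (95% exact counting interval 0.0315 to 0.346). Its call was lost in DESeq2 (adjusted p = 0.0553) and its log2 fold change, -2.99, was -2.48 without washout replicate 2. It did not pass the filter without GSI replicate 1, and without washout replicate 1 the washout group was at 0 counts, so that the fitted -6.79 is no measure of size. The 4 downregulated receptors became 2 without GSI replicate 1 and 2 without washout replicate 1.

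Of 30 textbook target genes of NF-κB, 17 were tested, 1 rose (5.88%) and 13 fell (76.5%) in edgeR, beside 27.0% and 25.4% of all genes tested. Of these, 9 were downregulated, beside 11.7% of all genes, and the median log2 fold change was -1.21. Of the 13 untested targets, 10 were at or below 3 counts in every library, and 8 of them were at 0. Gadd45b, a stress-induced gene that restrains JNK signaling, was at 6.94 and 5.41 CPM in GSI and at 1.18 and 0.670 CPM after washout (log2 fold change -2.66, adjusted p = 0.00140). Ccnd2, which encodes cyclin D2, was at 41.3 and 41.6 CPM in GSI and at 8.05 and 5.88 CPM after washout (-2.54, adjusted p = 0.000334). Both genes were several times lower in every washout library. The early response gene Ier3 fell by 2.39 and Fas, a death receptor, by 1.99 on the log2 scale (adjusted p = 0.00240 and 0.000525). The gene that rose, named after its values were seen, was Sod2, the mitochondrial superoxide dismutase (0.57, adjusted p = 0.00295).

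**Figure D5:**
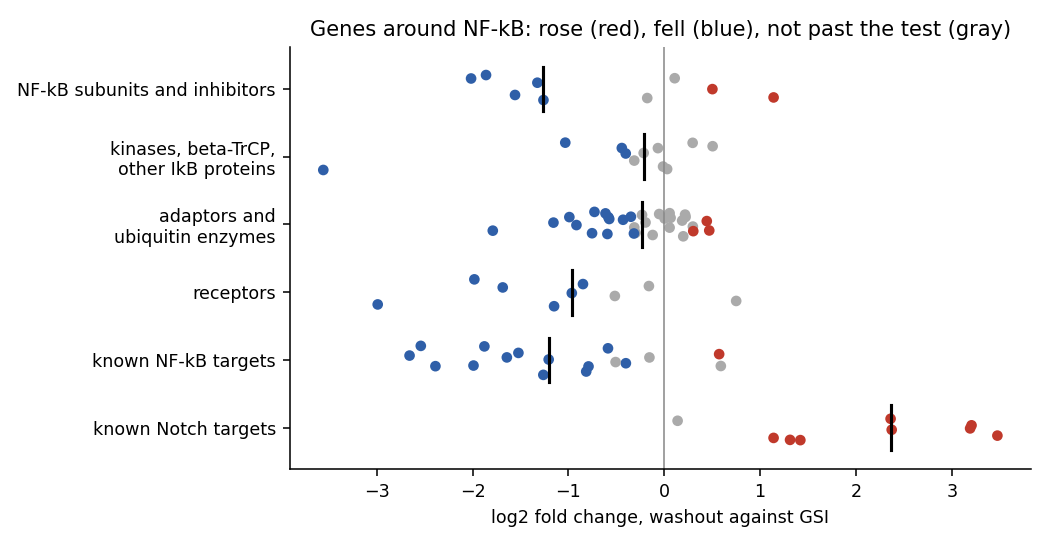
Log2 fold change of washout against GSI for each tested gene of the NF-κB subunits and inhibitors, of 4 further lists of the pathway and of known Notch targets, with red for genes that rose, blue for genes that fell, gray for genes not past the test and a black bar at each list's median. The medians are -1.26 for the subunits and inhibitors, -0.21, -0.23, -0.96 and -1.21 for the 4 pathway lists and 2.36 for the Notch targets.

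The genes whose pattern over the 4 libraries was most like that of Nfkbie were sought among 9287 genes whose log2 CPM averaged 3 or more, by the Euclidean distance between centered log2 CPM values. The closest were Sytl1 (0.0423), Adcy9, which encodes an adenylyl cyclase (0.115), and Bzrap1 (0.121), where the median distance was 2.12. Sytl1 was at 164.4 and 173.6 CPM in GSI and at 37.6 and 45.3 CPM after washout, with both washout libraries lower, as for Nfkbie. Of the other members, Nfkbia ranked 109 (distance 0.468) and Tnfaip3 258 (0.689) among these genes. Relb and Nfkbiz, with averages of 2.08 and 2.34, were under the limit of 3 and were not ranked. With 2 libraries in each of 2 groups, such likeness is mostly the size of the difference between the groups, and it is given as a description.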

How the data were processed

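RNA-Seq was measured in 2 GSI and 2 washout libraries of Beko cells. After adapter trimming, the authors mapped the reads to mm9 with HISAT2 2.2.1 and counted them per gene, and the deposited values are raw counts without normalization. The strand setting and overlap mode of the counting are not given in the sources used here, so genes that overlap a neighbor are uncertain. Groups and replicate numbers were taken from the library labels. Counts were tested with edgeR 4.0.16 in R 4.3.3 (filterByExpr, TMM, quasi-likelihood test without covariates), with Benjamini-Hochberg adjustment over all 12266 genes tested. The thresholds, an adjusted p of 0.05 and an absolute log2 fold change of 1, are those of the study. The fit was tested on simulated data with known changes. Library totals were between 13716199 and 36364200 counts, and replicates differed by more than sampling noise (chi-square per degree of freedom 17.2 in GSI and 27.7 in washout). The biological coefficient of variation was 0.121.

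Positions, exon length and GC content came from the GENCODE vM1 annotation of mm9, which matched 20641 of 24391 symbols and 10962 (89.4%) of the genes tested. Promoter sequences are RefSeq's, from a GRCm38.p6 table, and were located on mm9 by exact match. Proteins were not analysed here. The text names all 10 genes, in each list the up to 4 genes with the largest absolute log2 fold change among those past the test, and the 3 genes most like the member with the largest change. Exceptions are marked, and 1 gene that this rule chose is not reported here. The members and the lists were chosen with earlier results of these data known. Alternatives were DESeq2 1.42.0, RLE factors or the total count in edgeR, other filters (no filter beyond 1 count, or at least 10 counts in every library), thinned counts, the replicate number as a block, offsets for GC content and exon length, glmTreat, the adjusted p alone and leaving out each library.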

Additional observations from a re-analysis of the deposited data

How the results depend on the processing

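Nfkbia, Nfkbie and Nfkbiz kept their direction and their call in all 14 alternative fits, and Tnfaip3 in all but glmTreat (adjusted p = 0.0651). The number of upregulated subunits and inhibitors, 1 as reported, was 0 with the total count alone, 0 with glmTreat (a test against a log2 fold change of 1) and 2 with the adjusted p alone, and lay between 0 and 1 with a library left out. The number downregulated, 5, was 3 with glmTreat and lay between 4 and 5 with a library left out. In these last fits 1 library remains in its group and is assumed to vary like the others. Signs turned for Rela with the total count (-0.0907) and for Map3k14 with GC and length offsets (0.0116) and with those offsets and the replicate block (0.00586). In the list of kinases, β-TrCP and other IκB proteins, the 2 downregulated genes became 1 without a filter, 1 with at least 10 counts, 0 with glmTreat, 1 with GC and length offsets, 1 with these and the block, 4 with the adjusted p alone and 0 to 2 with a library left out. Among the adaptors, 2 downregulated genes became 4 with the total count, 1 with glmTreat, 13 with the adjusted p alone and 2 to 4 with a library left out, and 0 upregulated ones became 3 with the adjusted p alone. Of the receptors, 4 downregulated became 0 with glmTreat, 2 in DESeq2, 6 with the total count, 6 with the adjusted p alone and 2 to 4 with a library left out. Of the targets, 9 downregulated became 6 with glmTreat and 13 with the adjusted p alone, and 0 upregulated became 1 with the adjusted p alone. The log2 difference of summed levels per length, 0.23 for the subunits and -1.47 for the inhibitors, was 0.0329 and -1.67 with the total count. Over all genes, 950 up and 1437 down became 586 and 1963 with the total count and 308 and 501 with glmTreat. The cause of these shifts was not tested.

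No label says that libraries with the same replicate number share a culture or day, and with 2 pairs the numbers were not taken as pairs. The deviations of same-numbered libraries correlated at 0.497, and replicate 1 was the deeper library in both groups. The replicate block left the members at 1 upregulated and 5 downregulated, with 981 genes up and 1576 down over all genes. Depth limits Rel, whose 1 to 7 counts per library allow no comparison, and Map3k8 and Tnfrsf11a, which rest on few counts after washout.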
